A study of Mus musculus with 6 samples.

Results

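The 49 genes described here encode receptors for glutamate, the auxiliary subunits that travel with them, the scaffold proteins that hold them at the synapse, 2 subunits of the kinase CaMKII and 2 vesicular glutamate transporters. They were chosen by name: every non-control probe of the array whose gene name was one of the 49 was taken, which gave 77 probes. All 49 genes had at least 1 probe that passed the filter on dim signal, out of 32700 genes tested and 35517 genes on the array. The samples were 6 total RNA preparations from the S1 cortex, the primary area for touch, of C57BL/6 mice at postnatal day 7, each read on 1 single-colour array. The 3 control samples carried floxed Lhx2 alleles (Lhx2f/f) without Cre according to the design text, whereas their sample labels call them wild-type. The 3 samples of the other group, labelled cKO, carried the same floxed alleles together with Nex-Cre (Lhx2f/f;Nex-Cre). Nex-Cre is a Cre recombinase driven from the Neurod6 locus, which young cortical excitatory neurons use, so glia and interneurons keep their alleles. Whether each sample is a separate animal is not stated by the labels, and every p-value therefore rests on the spread between samples, which may be technical.

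Glutamate carries most fast excitation in the cortex. AMPA receptors open and close within milliseconds, NMDA receptors admit calcium only when the membrane is already depolarised, kainate receptors modulate both sides of the synapse, and metabotropic receptors act through G proteins. Scaffolds of the Dlg, Dlgap, Shank and Homer families link these receptors to each other and to the actin skeleton, and in S1 the receptors take part in shaping the whisker map during the first postnatal days. Lhx2 encodes a LIM-homeodomain transcription factor.

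Each signal below was read by a probe of 60 bases. For the 6 genes with the smallest p-values, the first 30 bases of the probe are given as the array files write them, 5′ to 3′, because these stretches are what the values of the paragraphs on single genes report. Coordinates of the whole probe are on mm9, as in the files. No annotation of that build was used here, so the exon or untranslated region under a probe is not given.
Grin2c: attggttggaatttcttttcataggaacat
Grin3a: agctgccagtcattttatgaaaatgaagtg
Gria2: tttaatttgggggatattccttggggaaaa
Cacng5: aacttttgtcaatgttattaacacctgtga
Grik1: gctcacatagatattacttgaggagtgaaa
Slc17a6: taagtgcaaagcataaaacctcctgtgtgt
The probes lie on the minus strand at chr11:115110483-115110542 (Grin2c), chr4:49674688-49674747 (Grin3a), chr3:80495725-80495784 (Gria2), chr11:107736263-107736322 (Cacng5) and chr16:87896231-87896290 (Grik1). The Slc17a6 probe lies on the plus strand at chr7:58926067-58926126.

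The targeted gene went against its label: the Lhx2 probe averaged 3.60 ± 0.04 over control and 4.71 ± 0.17 over the arrays labelled cKO (SD, n = 3 each). Levels here and below are log2 signals minus the 75th percentile of their array. The sources used here do not give the deleted part of Lhx2, and outside it a probe checks nothing. Neurod6, the locus of the Cre, read 2.62 against 2.25. The samples are therefore called the arrays labelled cKO, and every direction rests on that label. All 6 arrays lay on 1 slide and belonged to 1 scan, with 86.7% to 91.1% of spots well above background and none saturated. Signal of Y-linked genes was present on control arrays 1 and 3 and not on the other 4. With a model term for this signal, the arrays labelled cKO are therefore compared with control array 2 alone. Row 1 of the slide held control array 1 and cKO array 2, and row 2 held control array 2 and cKO array 3, so that only these 2 pairs can be compared within a row. All 3 control arrays and cKO array 1 lay in column 1 of the slide, and cKO arrays 2 and 3 in column 2. Within a row, group and column therefore cannot be told apart.

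The glutamate receptor and scaffold genes differed little between the groups. The median log2 difference, arrays labelled cKO minus control, was 0.02 over the 49 genes and 0.02 over all genes tested. The difference was above 0 for 27 of the 49 (55.1%), and for 55.7% of all genes tested. The median size of the difference without its sign was 0.10, as it was over all genes, against a median standard error of 0.14. Only Grin2c differed by more than 2-fold.

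With limma and Benjamini-Hochberg adjustment over all 32700 genes, 0 of the 49 passed an adjusted p of 0.05, where 0.00917% of all genes (3 genes) passed. The adjusted p of the 49 ran from 0.37 to 0.9997. At an unadjusted p under 0.05 there were 6 of the 49 (12.2%), beside 7.49% of all genes tested. Of these, 2 were higher in the arrays labelled cKO, Gria2 and Grin3a, where 3.12% of all genes were. The other 4 were lower, Grin2c, Cacng5, Grik1 and Slc17a6, beside 4.37% of all genes. The number called at the unadjusted threshold was 3 without control array 1, so that count depends on single arrays.

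The groups did not overlap, meaning that all 3 arrays of one group lay above all 3 of the other, for 7 of the 49 genes (14.3%) and for 13.2% of all genes tested. Among the 7, Gria2, Gria4, Grin3a and Camk2b were higher in the arrays labelled cKO (4 genes, beside 6.98% of all genes), and Grin2c, Cacng5 and Slc17a6 were lower (3 genes, beside 6.19%). These shares are near the background, and none singles the 49 genes out. The 95% interval of the difference lay inside a 2-fold change in either direction for 47 of the 49 genes (94% of all genes) and inside a 1.5-fold change for 35 (73.5% of all genes).

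**Figure D1:**
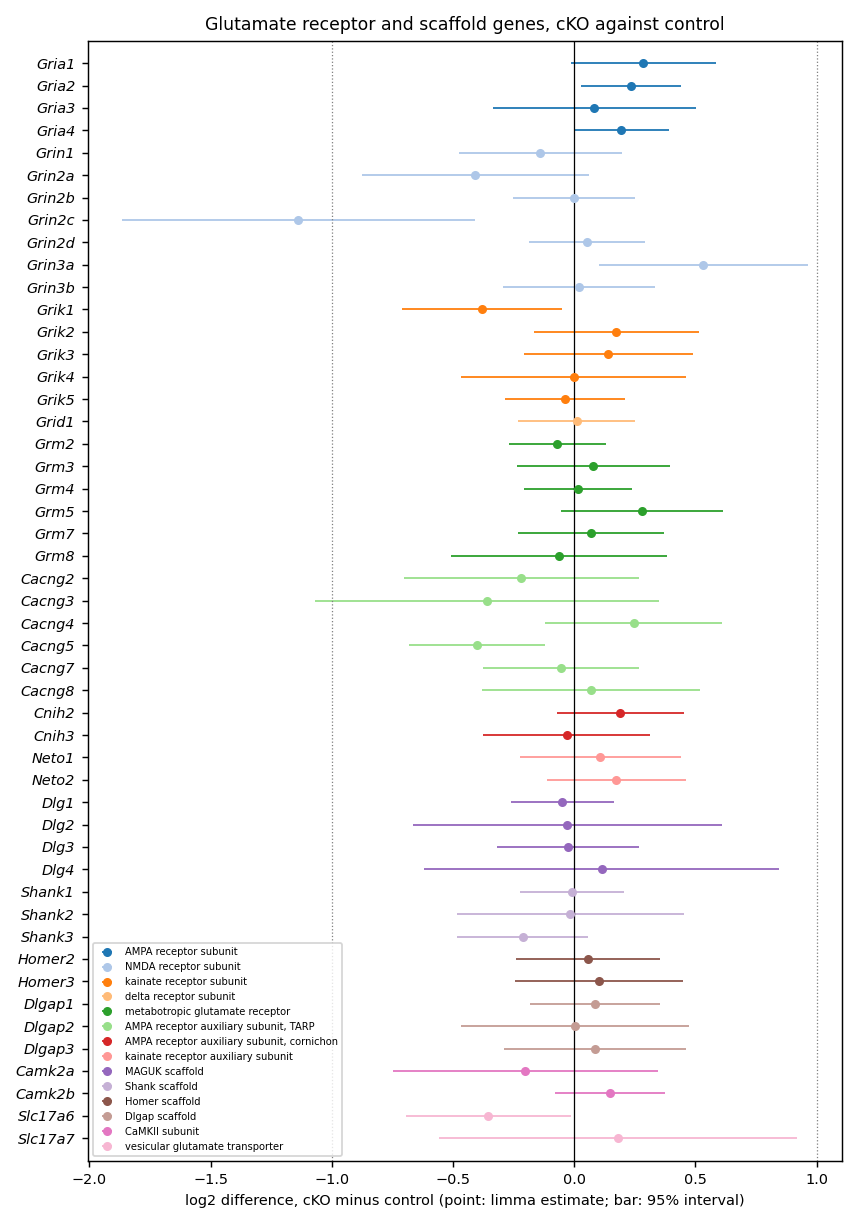
Log2 difference between the arrays labelled cKO and control for each of the 49 genes (horizontal axis; point, limma estimate; bar, 95% interval; 3 arrays a group), coloured by role, with dotted lines at a 2-fold change. Grin2c lies beyond the lower line at -1.14, all 4 AMPA receptor subunits lie to the right of 0, and most intervals cross 0.

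The AMPA receptor subunits, which form the fast channels, had positive differences for 4 of 4 genes, beside 55.7% of all genes tested, with a median of 0.21. Of the 4, 1 had an unadjusted p under 0.05, beside 7.49% of all genes. Gria2, the subunit whose edited form keeps calcium out of the channel, read 1.06, 1.08 and 1.01 on control arrays 1 to 3 and 1.32, 1.34 and 1.20 on cKO arrays 1 to 3. Every array labelled cKO lay above every control array, and the spread within a group was at most 0.07 (SD). The log2 difference was 0.24 (SE 0.09, adjusted p = 0.57), a 1.18-fold difference that did not pass. A second Gria2 probe (chr3:80488858-80488917) gave 0.20, with overlapping groups.

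Gria4 read 1.43, 1.45 and 1.36 in control and 1.59, 1.62 and 1.62 in the arrays labelled cKO. Here too the groups were apart, by a log2 difference of 0.19 (SE 0.08, adjusted p = 0.67). Its second probe, at chr9:4502385-4502444, gave 0.27 (SE 0.09), again with no overlap. Gria1, the subunit most tied to activity-dependent delivery to synapses, read 1.15, 1.28 and 0.96 in control and 1.56, 1.42 and 1.26 in the arrays labelled cKO. The lowest of the latter fell just below the highest control, and the log2 difference was 0.28 (SE 0.13, adjusted p = 0.69). Gria3 differed by 0.08 (SE 0.18), and array 3 was the lowest in both groups, by 0.33 or more. Over quantile normalization, median centring and both normexp corrections all 4 differences stayed positive, at 0.27 to 0.28 for Gria1, 0.23 for Gria2, 0.07 to 0.08 for Gria3 and 0.18 to 0.19 for Gria4. Gria3 turned negative under other settings, at -0.12 with array weights, -0.12 with a term for Y-linked signal and -0.08 without control array 3. Gria1 was 0.13 with the term for Y-linked signal. Within slide row 2, from 1 array against 1, Gria1 was -0.02 and Gria3 -0.36, while Gria2 was 0.13 and Gria4 0.17. Within row 1 these genes ranged from 0.06 for Gria3 to 0.28 for Gria1.

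The NMDA receptor genes gave both the lowest and the highest difference of the 49. Of 7 genes, 3 had positive and 4 negative differences, with a median of 0.00. Grin2c, a GluN2 subunit known from cerebellar granule cells and, in cortex, from astrocytes, read -1.41, -1.96 and -1.57 in control. In the arrays labelled cKO it read -2.36, -2.51 and -3.47. Even the highest of these lay 0.40 below the lowest control, and cKO array 3 lay furthest down. Between the group means the log2 difference was -1.14 (SE 0.31, adjusted p = 0.37), which is 2.20-fold lower, and it did not pass. The probe was well above background on all 6 arrays, and the difference was -0.79 without cKO array 3. With normexp background correction it was -0.84 at the smallest. With a term for Y-linked signal, which leaves only control array 2 to compare with, it was -0.83.

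Astrocyte markers were also lower in the arrays labelled cKO, but they did not follow Grin2c array by array. Among the controls Grin2c was lowest on array 2, at -1.96, where the astrocyte median was highest, at 0.08 relative to the control mean. The difference was negative for 18 of 18 tested astrocyte markers, among them Gfap at -1.15, Aqp4 at -0.46, Aldh1l1 at -0.27 and Aldoc at -0.50. Of the 18, 0 passed the adjusted threshold and 15 had an unadjusted limma p under 0.05, beside 7.49% of all genes tested. Their summed signal, in multiples of each array's 75th percentile, was 364 to 437 in control and 293 to 360 in the arrays labelled cKO. Their part in the Grin2c value was not tested. In RNA of whole tissue, fewer cells of a type and less RNA per cell cannot be told apart.

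Grin3a, a subunit that lowers calcium entry and is most abundant in the young brain, gave the highest difference of the 49. It read 1.86, 1.89 and 1.68 in control and 2.74, 2.19 and 2.09 in the arrays labelled cKO. All 3 of the latter lay above control, and cKO array 1 stood 0.55 above the next. This gave a log2 difference of 0.53 (SE 0.18, adjusted p = 0.52), or 1.45-fold. Without cKO array 1 it was 0.33. A second probe at chr4:49678098-49678157 read 0.82, 0.32 and -0.64 in control and 1.69, 1.07 and 0.46 in the arrays labelled cKO, a difference of 0.91 (SE 0.43). On that probe the groups overlapped, and the spread within a group was wide.

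Grin2a, the subunit that joins cortical NMDA receptors as they mature, read 0.11, 0.26 and -0.44 in control and -0.47, -0.24 and -0.57 in the arrays labelled cKO. Control array 3 lay among the latter, so the groups overlapped. The log2 difference was -0.41 (SE 0.20, adjusted p = 0.75), and its second probe at chr16:9579338-9579397 gave -0.02. With a term for Y-linked signal, which leaves only control array 2 to compare with, the first probe gave -0.69. It gave -0.35 within slide row 1 and -0.83 within row 2. Without control array 2 it gave -0.27 and without control array 3 -0.62, and the mean of both probes gave -0.21. Grin1, which every NMDA receptor contains, differed by -0.14 (SE 0.14), with control values of 2.36, 2.33 and 2.11 and cKO values of 2.24, 2.27 and 1.87. Grin2d, a subunit of early development and interneurons, differed by 0.05 (SE 0.10). Grin3b, known mainly from motor neurons, gave 0.02, and Grin2b, the main GluN2 subunit of the newborn cortex, gave 0.00 with a 95% interval from -0.26 to 0.25.

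**Figure D2:**
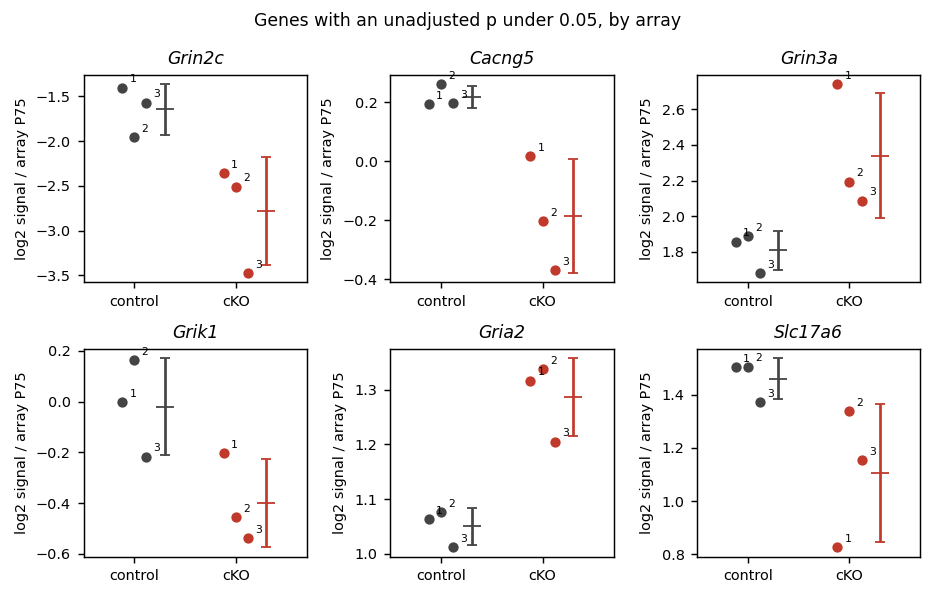
Signal of the 6 genes with an unadjusted p under 0.05 on each array (vertical axis, log2 signal minus the array's 75th percentile; points numbered by replicate; bars, mean and SD of 3 arrays). The groups are apart for 5 genes, and for Grik1 control array 3 lies just below cKO array 1.

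Kainate receptor subunits differed in both directions, 2 positive and 3 negative out of 5. Grik1, which encodes the GluK1 channel subunit found in many interneurons, read 0.00, 0.16 and -0.22 in control and -0.20, -0.46 and -0.54 in the arrays labelled cKO. Control array 3 fell 0.01 below cKO array 1, so the groups overlapped slightly. Grik1 thus differed by -0.38 (SE 0.14, adjusted p = 0.57), a 1.30-fold lower signal that did not pass. A probe that the files name differently and that the RefSeq gene table assigns to Grik1 gave -0.14. With a term for Y-linked signal, which leaves only control array 2 to compare with, the Grik1 difference was -0.56. The difference was negative for 16 of 19 tested interneuron markers, among them Gad2 at -0.38, Slc32a1 at -0.33 and Gad1 at -0.14. Of these 19, 2 had an unadjusted limma p under 0.05, beside 7.49% of all genes tested. Their summed signal was 143 to 176 in control and 128 to 156 in the arrays labelled cKO, and their part in the Grik1 value was not tested.

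Of the other kainate genes, Grik2 differed by 0.17 (SE 0.14), Grik3 by 0.14 (SE 0.15) and Grik5, which needs another subunit to form a channel, by -0.04 (SE 0.10). Grik3 was high on cKO array 1 alone, 0.44 above the next array of its group, and the other 5 arrays lay between 1.47 and 1.60. Grik4 behaved alike, at 1.59 on cKO array 1 and 0.84 to 1.19 elsewhere, and its difference was 0.00 (SE 0.20). The auxiliary subunits of kainate receptors, Neto1 and Neto2, differed by 0.11 (SE 0.14) and 0.17 (SE 0.12). Of 2 tested Neto2 probes the second gave 0.00. The delta receptor gene Grid1, which organises synapses rather than passing current for glutamate, differed by 0.01 (SE 0.10).

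None of the 6 metabotropic receptor genes had an unadjusted limma p under 0.05, beside 7.49% of all genes tested. Of the 6, 4 had positive differences. Grm5, coupled to Gq and active in the developing barrel cortex, read 3.63, 3.63 and 3.33 in control and 4.02, 3.78 and 3.62 in the arrays labelled cKO. The lowest of the latter lay level with the upper controls, and the log2 difference was 0.28 (SE 0.14, adjusted p = 0.77). Its other probes gave 0.31 and 0.14, so all 3 had the same sign. Grm2 and Grm3, which couple to Gi and lower transmitter release, differed by -0.07 (SE 0.09) and 0.08 (SE 0.13). The release-limiting receptors Grm4, Grm7 and Grm8 lay between -0.06 and 0.07. For Grm4 the 2 probes had opposite signs, 0.02 and -0.25.

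Among the auxiliary subunits of AMPA receptors, the TARP genes had a median difference of -0.14, with 2 positive and 4 negative. TARPs carry AMPA receptors to the membrane and slow their closing. Cacng5, a type II TARP, read 0.19, 0.26 and 0.20 in control and 0.02, -0.20 and -0.37 in the arrays labelled cKO. Each array labelled cKO lay below every control array, and the controls spread by only 0.04 (SD). The log2 difference was -0.40 (SE 0.12, adjusted p = 0.42), or 1.32-fold lower, without passing. It stayed between -0.50 and -0.31 when single arrays were left out.

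Cacng2, the gene of stargazin, differed by -0.22 (SE 0.20). It read 2.40, 2.47 and 1.72 in control and 1.90, 2.09 and 1.95 in the arrays labelled cKO, so that control array 3 was the lowest of all 6. Its difference was -0.45 without that array and -0.08 without control array 2. A second Cacng2 probe was above background on 0 of 6 arrays and was not tested. Cacng3 differed by -0.36 (SE 0.30), with controls between -0.42 and 0.40 and the arrays labelled cKO between -0.84 and 0.17, and its difference was -0.62 without cKO array 1 and -0.12 without cKO array 3. Cacng4, a TARP of the embryonic and young brain, differed by 0.25 (SE 0.15), or by 0.13 without control array 1 and 0.39 without control array 3. Cacng7 and Cacng8 differed by -0.05 and 0.07. The cornichon genes Cnih2 and Cnih3, whose products also slow AMPA receptors, differed by 0.19 (SE 0.11) and -0.03 (SE 0.15). Both Cnih2 probes had the same sign (0.19 and 0.18), but they overlap by 46 of 60 bases and are no independent check.

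The estimated differences of the scaffold genes were small, some with wide standard errors. Their 12 differences ran from -0.21 to 0.11. At an unadjusted limma p under 0.05 there were 0 of 12, beside 7.49% of all genes tested. With so few genes, this count does not set the scaffolds apart from all genes. Of the Dlg genes, Dlg1 (SAP97) differed by -0.05 (SE 0.09), Dlg2 (PSD-93) by -0.03 (SE 0.27), Dlg3 (SAP102) by -0.03 (SE 0.12) and Dlg4 (PSD-95) by 0.11 (SE 0.31). Dlg4, the main scaffold of the mature excitatory synapse, read 2.22, 2.36 and 1.53 in control and 2.26, 2.60 and 1.60 in the arrays labelled cKO. Array 3 was the low one in both groups, and the 95% interval of Dlg4 ran from -0.62 to 0.85. A second Dlg1 probe at chr16:31863262-31863321 gave -0.29 (SE 0.11) with no overlap, while the brighter one gave -0.05.

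Shank genes, whose products form the deeper layer of the scaffold, had negative differences for 3 of 3, where 55.7% of all genes tested had positive ones. Shank1 and Shank2 changed sign under other settings. Shank3 read 2.20, 2.25 and 2.02 in control and 1.97, 2.06 and 1.80 in the arrays labelled cKO, a difference of -0.21 (SE 0.11, adjusted p = 0.81) with overlapping groups. Shank1 differed by -0.01 (SE 0.09) and Shank2 by -0.02 (SE 0.20), both smaller than their standard errors. The 3 Shank1 probes had both signs, from -0.05 to 0.03, and a probe that only the RefSeq gene table assigns to Shank2 gave -0.27. Homer2 and Homer3, which link metabotropic receptors to calcium stores, differed by 0.06 and 0.10. For Homer3 the 2 probes had opposite signs, 0.10 and -0.15. Dlgap1, Dlgap2 and Dlgap3, which bridge Dlg and Shank proteins, differed by 0.09, 0.00 and 0.08. One further Dlgap1 probe at chr17:71165374-71165433 gave 0.23 (SE 0.10) with no overlap, and all 3 Dlgap1 probes had the same sign.

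CaMKII, the kinase that calcium from NMDA receptors activates, is built mainly from its alpha and beta subunits. Camk2b read 6.30, 6.23 and 6.07 in control and 6.35, 6.37 and 6.32 in the arrays labelled cKO. The groups did not overlap, but the gap between them was 0.03, and the log2 difference of 0.15 (SE 0.10) had an adjusted p of 0.88. Camk2a, which increases as the cortex matures, read 1.63, 1.37 and 0.93 in control and 1.07, 1.46 and 0.79 in the arrays labelled cKO, a difference of -0.20 (SE 0.23) that was -0.04 without control array 1 and -0.39 without control array 3. Its groups overlapped across most of their range.

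Vesicular transporters load glutamate into synaptic vesicles on the other side of the synapse. Slc17a6 encodes VGLUT2, known from thalamic neurons and from young cortical neurons. It read 1.50, 1.50 and 1.37 in control and 0.83, 1.34 and 1.15 in the arrays labelled cKO. The highest of these, cKO array 2, lay 0.03 below the lowest control, and cKO array 1 lay furthest down. The log2 difference was -0.35 (SE 0.14, adjusted p = 0.64), a 1.28-fold lower signal that did not pass. Without cKO array 1 it was -0.21. Thalamic markers had negative differences for 5 of 8 tested, with a median of -0.03 and a summed signal of 4.31 to 4.85 in control and 3.99 to 4.32 in the arrays labelled cKO. Slc17a7, which encodes VGLUT1 of mature cortical neurons, read 1.18, 1.38 and 0.35 in control and 1.60, 1.05 and 0.81 in the arrays labelled cKO. Its difference of 0.18 (SE 0.31) was smaller than the spread within either group.

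LIM-homeodomain factors are known to bind the core TAATTA, which reads the same on both strands. Promoter sequences of RefSeq (GRCm38.p6) covered 34 of the 49 genes. In the 250 bases before the start, TAATTA was present in 4.84% of all 32851 promoters and in 1 of the 50 promoters of these genes. By gene, that is 1 of 34 (2.94%), against 5.65% of all genes with a promoter in the table. The 1 promoter was 1 of those of Slc17a6, at chr7:51624387-51624636 on the plus strand of GRCm38.p6. It is shown 5′ to 3′ with the match in capitals because no other promoter found for these genes holds the core.
Slc17a6: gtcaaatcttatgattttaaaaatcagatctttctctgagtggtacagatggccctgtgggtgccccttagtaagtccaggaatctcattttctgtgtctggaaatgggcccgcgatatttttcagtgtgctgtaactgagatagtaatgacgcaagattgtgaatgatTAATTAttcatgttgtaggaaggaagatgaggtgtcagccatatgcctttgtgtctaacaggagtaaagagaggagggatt
The first base of the match lies 81 bases before the start. A match is a stretch of letters and no measurement of binding.

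Some of these genes replace each other as synapses mature, and 4 such pairs were compared as a difference within each array, which takes out anything that scales both probes alike. Grin2a minus Grin2b read -2.42, -2.28 and -2.80 in control and -2.94, -2.85 and -2.93 in the arrays labelled cKO. The groups were apart by 0.04, and the means differed by -0.41 (exact permutation p = 0.10, two-sided; adjusted p = 0.40 over the 4 pairs). With 3 arrays against 3, 0.10 is the smallest p this test can give. Because Grin2b hardly differed, nearly all of this value comes from the brighter Grin2a probe, and the second Grin2a probe differed by only -0.02.

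Slc17a7 minus Slc17a6 was -0.33, -0.12 and -1.02 in control and 0.77, -0.29 and -0.34 in the arrays labelled cKO. Only cKO array 1 stood out, and the mean difference of 0.54 had an exact permutation p of 0.50. For Camk2a minus Camk2b the mean difference was -0.35 (exact permutation p = 0.20, adjusted p = 0.40), and for Dlg4 minus Dlg3 it was 0.14 (exact permutation p = 0.50). The last reversed to -0.02 without control array 3 and to -0.03 without cKO array 2. These within-array values compare groups, not genes, since the level of one probe cannot be set against that of another.

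**Figure D3:**
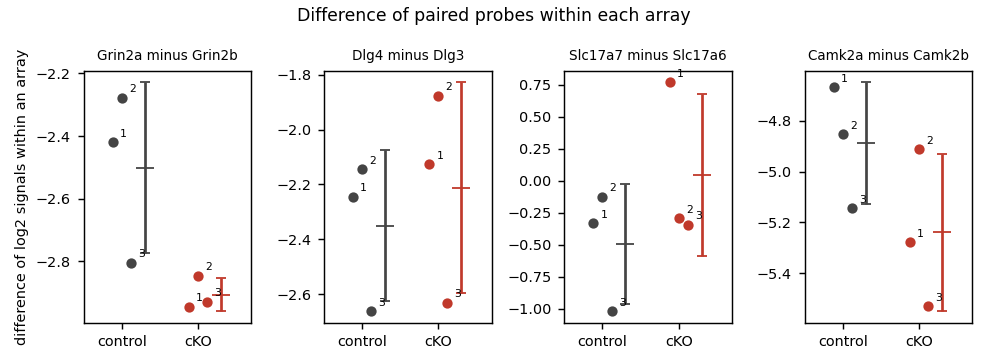
Difference of 2 probes within each array for 4 pairs of genes (vertical axis, log2 units; points numbered by replicate; bars, mean and SD of 3 arrays). Grin2a minus Grin2b lies at -2.80 to -2.28 in control and -2.94 to -2.85 in the arrays labelled cKO, and the other pairs overlap.

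In the median of the 49 genes, the 3 arrays of a group were spread more widely than the groups were apart. Relative to the mean of the controls, the median of the 49 genes was 0.05, 0.07 and -0.14 on control arrays 1 to 3 and 0.13, 0.08 and -0.11 on cKO arrays 1 to 3. Control array 3 and cKO array 3 were thus the low arrays. Of the 49 genes, 35 (71.4%) were lowest among the controls on control array 3, as were 32.6% of all genes tested. On cKO array 3, 37 of the 49 (75.5%) were lowest in their group, beside 29.8% of all genes. The labels do not say what arrays of the same number share. Over genes, the deviations of these 2 arrays from their group means correlated at 0.17, and a shared source of their low values was not tested. Genes of one network are not independent, and the shares are a description without a test.

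On control array 3 the levels of 6 genes, Slc17a7, Cacng2, Dlg2, Dlg4, Dlgap2 and Grin2a, were at least 0.5 below both other controls. On cKO array 3 the same held for 2 genes, Grin2c and Dlg4, against the other arrays of its group. Without control array 3 the median difference over the 49 genes was -0.04, and without cKO array 3 it was 0.11, beside 0.03 and 0.02 for all genes tested. Within slide row 1 the median was 0.06 and within row 2, which holds cKO array 3, it was -0.17. The 6 genes with an unadjusted p under 0.05 kept their sign with each array left out in turn and within both rows. Except for Grik1, the groups of these genes did not overlap, so their signs could not have changed and this is no further check.

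**Figure D4:**
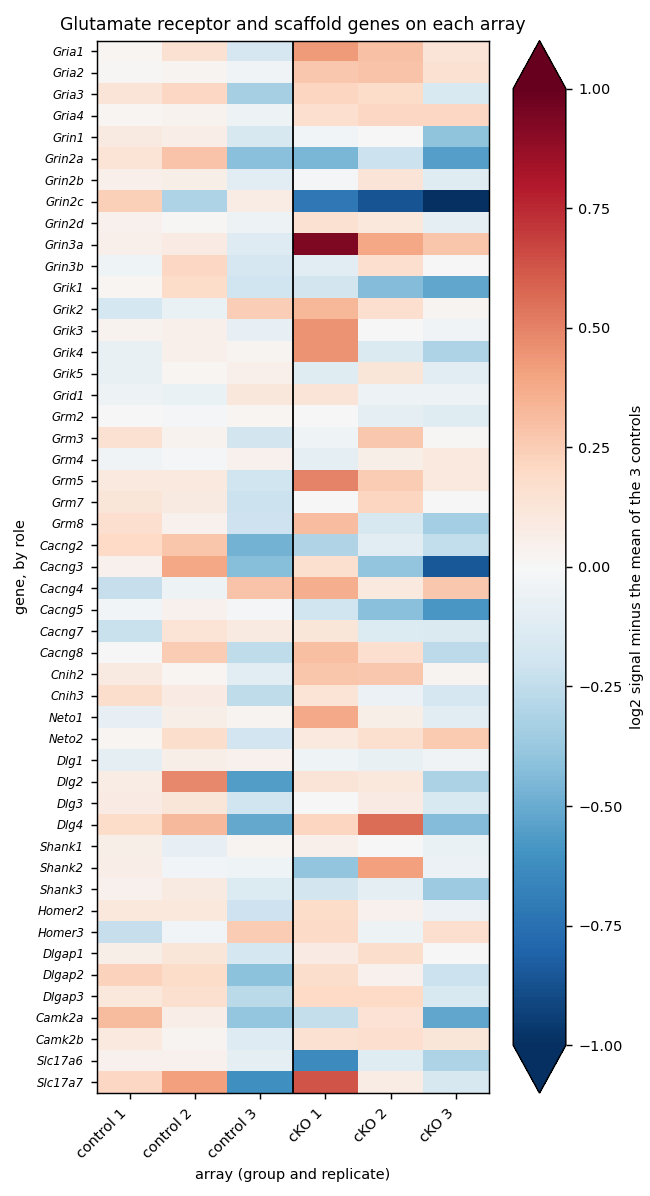
Signal of the 49 genes (rows, ordered by role) on each of the 6 arrays (columns), as log2 signal minus the mean of the 3 controls; red is above and blue below that mean. Control array 3 and cKO array 3 are mostly blue, and the rows of Grin2c and Grin3a differ between the groups.

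A further 47 genes of glutamate signalling and the postsynaptic density outside the 49 were read from the same fit. Their median difference was 0.01, 28 were positive and 19 negative, and 0 passed the adjusted threshold of limma. At an unadjusted limma p under 0.05 there were 7 of 47, beside 7.49% of all genes tested. Olfm2 (0.24), a protein that binds AMPA receptors, and Shisa9 (0.33), an AMPA receptor auxiliary subunit, were higher, and the other 5 were lower. The lower ones were Frrs1l (-0.73), needed to assemble AMPA receptors, the adaptor gene Lin7a (-0.39), the transporter gene Slc17a8 of VGLUT3 (-0.23), and Slc1a2 and Slc1a3. The last 2 encode the glutamate uptake transporters of astrocytes and are also among the astrocyte markers. Slc1a3 differed by -0.31 (SE 0.09, adjusted p = 0.40) and Slc1a2 by -0.56 (SE 0.21, adjusted p = 0.58).

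Markers of the cell types present in the tissue gave the following values beside these. Excitatory cortical neuron markers were detected, with positive differences for 9 of 15 and a median of 0.09, and their summed signal was 84.9 to 94.6 in control and 81.9 to 98.4 in the arrays labelled cKO. Of the 15, 7 had an unadjusted limma p under 0.05, 4 higher and 3 lower, beside 7.49% of all genes tested. The differences ran from -0.91 for Emx1 to 1.16 for Neurod1 (adjusted p = 0.07). Oligodendrocyte lineage markers were negative for 14 of 16, with a median of -0.33 and a summed signal of 171 to 212 in control and 141 to 164 in the arrays labelled cKO. Microglial markers were negative for 14 of 14, with a median of -0.58 and a summed signal of 88.1 to 90.7 against 68.9 to 74.9. Endothelial and mural markers were negative for 8 of 12 and striatal markers for 8 of 11, with medians of -0.16 and -0.23, while hippocampal markers were negative for 3 of 11 with a median of 0.09. Among the controls, striatal markers were high on array 3 alone. Relative to the mean of the controls, their median was -0.21, -0.19 and 0.47 on control arrays 1 to 3. It was 0.07, -0.31 and -0.42 on cKO arrays 1 to 3, so the groups overlapped. No marker of these lists passed the adjusted threshold of limma. By array, the median of the astrocyte markers was 0.05, 0.08 and -0.11 in control and -0.37, -0.40 and -0.51 in the arrays labelled cKO, and that of the microglial markers was 0.04, 0.04 and -0.07 in control and -0.27, -0.59 and -0.97 in the arrays labelled cKO. Array 3 was thus the lowest of its group in both lists, as it was in the median of the 49 genes. The same held for the further genes of glutamate signalling and the postsynaptic density (-0.15 in control and -0.06 in the arrays labelled cKO). It also held for the thalamic markers (-0.09 in control and -0.17 in the arrays labelled cKO). Other lists differed: excitatory neuron markers were highest of their group on cKO array 3 (0.20), and oligodendrocyte lineage markers were lowest on cKO array 1 (-0.405, against -0.399 on cKO array 3). All 3 arrays labelled cKO lay below all controls in the glial lists. They did not in the median of the 49, which has members of both signs. The part of these cell types in the values of the 49 genes was not tested.

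**Figure D5:**
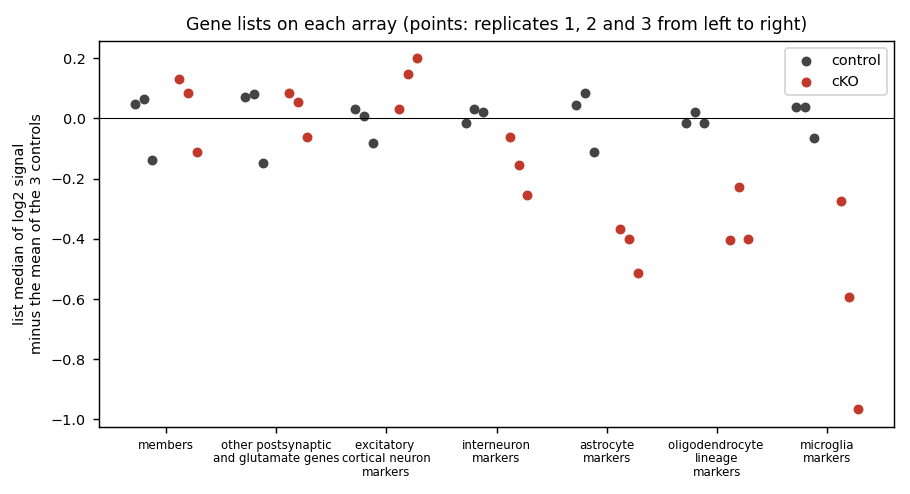
Median log2 signal of each gene list on each array, relative to the mean of the 3 controls (vertical axis; points are arrays, replicates 1 to 3 from left to right in each group). The 49 glutamate receptor and scaffold genes (members) overlap between the groups, whereas astrocyte, oligodendrocyte lineage and microglial markers lie lower on all 3 arrays labelled cKO.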

How the data were processed

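The authors deposited 1 scanner file for each of 6 Agilent 1-colour arrays. Per the file headers, it was written by Feature Extraction 10.5.1.1 and holds the processed intensity of each spot after spatial detrending and background subtraction, not normalized between arrays. Per the labels, RNA was amplified and labelled with Cy3. The authors' deposited matrix of log2 values, used as an alternative, matched quantile-normalized log2 intensities minus each probe's median (95% of values within 0.00197; column medians -0.0064 to 0.00645); its scale and centring are inferred from this match, since the sources used here do not say how it was made.

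Control spots and outlier-flagged spots were left out, spots of a probe averaged as log2 intensities, and each array's 75th percentile over probes subtracted; taking it over probes and not over spots was decided after both had been run. A probe was tested if well above background on at least 3 of 6 arrays, and a gene took its brightest tested probe by mean over the 6 arrays. Groups were compared with limma 3.58.1 (R 4.3.3; lmFit and eBayes, two-sided, 32700 genes), with Benjamini-Hochberg adjustment, without covariates. Gene names of all other probes were updated through a RefSeq table (GRCm38.p6); the 49 genes were matched by the name in the files, and 3 probes assigned to them only by that table were kept apart. Pairs were compared by exact permutation tests. The fit was tested on simulated data. Array number limits the precision.

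The 49 genes, the further lists and the alternatives were chosen with earlier results of these data known. The alternatives were other normalizations, background corrections and filters, outlier spots kept, a gene's probes averaged or tested singly, other variance models, array weights, a replicate block, terms for slide row and Y-linked signal, the authors' matrix and each array left out. Named are the genes with an unadjusted p under 0.05, up to 3 others per role by smallest p, and the rest by value or range.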

Additional observations from a re-analysis of the deposited data

How the results depend on the processing

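No glutamate receptor or scaffold gene passed an adjusted p of 0.05 under any of the 21 alternatives with a test, and the lowest adjusted p was 0.11, for Cacng5 with array weights. The 6 genes with an unadjusted p under 0.05 kept their direction under all of these alternatives, but much of this was fixed beforehand. The groups of all of them but Grik1 did not overlap. Their direction therefore could not have changed with single arrays left out, with array weights or with a term for Y-linked signal. Over the 49 genes, 937 of 1029 values kept their direction and 92, of 28 genes whose main difference lay between -0.06 and 0.18, reversed. The cause was not tested. The intensity trend with robust variances, the replicate block and both changes of the filter on dim probes leave the differences of the 49 genes as in the main fit. Values under these settings are among the 937 and could not have reversed. The number of the 49 with an unadjusted p under 0.05, with the share of all genes in brackets, was 10 with an intensity trend and robust variances (8.12%), 12 with array weights (13.5%), 2 with a term for Y-linked signal (3.35%) and 7 with a slide row term (10%). It was 9 with quantile normalization (8.94%), normexp before the 75th percentile (7.52%), normexp before quantile normalization (9.46%) and in the authors' matrix (8.94%), 9 of 76 probes with each probe on its own (6.78% of all probes), 4 with median centring (6.17%) and 3 to 6 with single arrays left out (5.57% to 9.2%). Over all genes, 3 of which passed, 12 passed with quantile normalization, 24 with median centring, 89 and 75 with normexp before the 75th percentile and before quantile normalization, 0 without a filter on dim probes, 13 with a filter on all 6 arrays, 110 with an intensity trend and robust variances, 136 with array weights, 12 in the authors' matrix, 0 with a slide row term, 0 with a term for Y-linked signal, 86 at an adjusted p under 0.10, 1 with each probe on its own, and 0 to 4 with single arrays left out. With the 75th percentile taken over spots before averaging, an alternative added after seeing the data, 2 genes passed over all genes, 0 of the 49 did, and 7 of the 49 had an unadjusted p under 0.05 (7.54% of all genes). Within slide row 2 the median of the 49 genes was -0.17, Dlg4 minus Dlg3 was -0.48, Slc17a7 minus Slc17a6 -0.22 and Camk2a minus Camk2b -0.68, from 1 array against 1. The replicate numbers were not taken to pair the samples, because the deviations of arrays with the same number correlated at -0.20, 0.08 and 0.17; with the number as a replicate block 0 genes passed over all genes, 0 among the 49, and 5 of the 49 had an unadjusted p under 0.05 (6.83% of all genes).

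Reversed log2 differences were as follows. With quantile normalization, normexp with quantile normalization and the authors' matrix, Grik4 was at 3.4e-04, 7.7e-04 and 6.3e-04. With median centring Dlgap2 was at -0.0050, and with normexp before the 75th percentile Shank2 was at 0.0099. With the mean of a gene's probes Grm4 was at -0.12 and Homer3 at -0.025. With a slide row term Grin2b was at 0.014, Grid1 at -0.014 and Shank2 at 0.049. With array weights the values were Gria3 -0.12, Grin2d -0.022, Grin3b -0.034, Grm3 -0.0072, Grm7 -0.029, Cacng8 -0.14, Dlg4 -0.26, Homer2 -0.067, Dlgap1 -0.0047, Dlgap2 -0.23, Dlgap3 -0.097 and Slc17a7 -0.19. With a term for Y-linked signal they were Gria3 -0.12, Grin3b -0.19, Grm7 -0.020, Cacng8 -0.19, Neto2 -0.0062, Dlg4 -0.21, Shank1 0.076, Shank2 0.011, Homer2 -0.049, Dlgap1 -0.034, Dlgap2 -0.18, Dlgap3 -0.074 and Slc17a7 -0.23. Not reversed with that term but smaller in size than in the main fit were Grin2c at -0.83, Grin3a at 0.45, Gria2 at 0.21, Gria1 at 0.13 and Grm5 at 0.18. Larger in size were Cacng5 at -0.45, Grik1 at -0.56, Slc17a6 at -0.40 and Grin2a at -0.69. With single arrays left out the ranges were Gria3 from -0.083 to 0.20, Grin2b from -0.067 to 0.058, Grin3b from -0.066 to 0.12, Grik3 from -0.014 to 0.23, Grik4 from -0.23 to 0.15, Grik5 from -0.12 to 0.0055, Grid1 from -0.052 to 0.066, Grm3 from -0.017 to 0.15, Grm4 from -0.022 to 0.076, Grm7 from -0.036 to 0.13, Grm8 from -0.25 to 0.074, Cacng7 from -0.17 to 0.015, Cacng8 from -0.057 to 0.23, Cnih3 from -0.16 to 0.056, Neto1 from -0.027 to 0.22, Dlg2 from -0.31 to 0.21, Dlg3 from -0.13 to 0.038, Dlg4 from -0.14 to 0.39, Shank1 from -0.050 to 0.022, Shank2 from -0.23 to 0.17, Homer2 from -0.049 to 0.11, Homer3 from -0.012 to 0.23, Dlgap1 from -0.0026 to 0.15, Dlgap2 from -0.20 to 0.12, Dlgap3 from -0.049 to 0.20, Slc17a7 from -0.13 to 0.39 and Dlg4 minus Dlg3 from -0.028 to 0.35. Of those that kept their sign, Grin1 ran from -0.22 to -0.011, Grin2d from 0.0044 to 0.13, Grik2 from 0.084 to 0.30, Grm2 from -0.10 to -0.044, Grm5 from 0.17 to 0.37, Neto2 from 0.075 to 0.26, Dlg1 from -0.099 to -0.021, Shank3 from -0.28 to -0.14 and Camk2b from 0.084 to 0.20.

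With 3 arrays a group the median standard error of 0.14 limits what can be told apart, and small differences were not detectable. All 76 tested probes were well above background on all 6 arrays.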
